A study of Mus musculus with 18 samples.

Results

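The muscle of mice bearing Lewis lung carcinoma (LLC) was set against the muscle of their phosphate-buffered saline (PBS) controls, using 4 of the 18 RNA-seq libraries of a study of muscle wasting in several mouse tumour models. The 4 libraries were those whose titles name LLC tumour-bearing mice (2 libraries, tumour 1 and tumour 2) and LLC controls (2 libraries, control 1 and control 2). LLC is a lung tumour line that arose in a C57BL/6 mouse, and the labels give the C57BL/6 background for both groups. The tumour-bearing mice had received LLC cells into a muscle and the controls PBS. The labels also call the model a xenograft, describe libraries of 1 group as biological replicates and give no age, no sex, no number of cells and no limb of injection. Every library was made from the tibialis anterior (TA), a fast-twitch muscle of the lower leg, collected when the tumour-bearing mice had reached their endpoint.

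The LLC effect was compared with the effects in 4 other models of the same study, 2 libraries a group. These were C26 colon carcinoma cells under the skin of CD2F1 mice against PBS controls, a genetic model labelled KPP with tumours induced by tamoxifen against mice without tumours, and the cell lines KPC (50000 cells) and KPCML1 (1000 cells) placed orthotopically against mice given Matrigel. The KPC and KPCML1 effects share their 2 Matrigel control libraries, and the LLC effect shares no library with any of them. Calls of the other models are read against their own shares of genes called higher and lower, which were 11.5% and 9.8% in C26, 17.4% and 19.3% in KPP, 15.3% and 13.7% in KPC, and 4.16% and 4.38% in KPCML1. Per the labels C26 mice had the CD2F1 background and all others C57BL/6. Route and tumour both differ between LLC and each other model, and for C26 the strain as well, so that these cannot be told apart in the comparisons with LLC.

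The 4 LLC libraries held 23812376 to 28966141 fragments, within the range of 22546541 to 36673780 over all 18. Genes were compared by log2 fold change, tumour over control, fitted with edgeR over all 18 libraries. A gene was called when its p-value, adjusted by Benjamini-Hochberg over the 16096 genes tested, was under 0.05. Values of single libraries are given as CPM, the fragments of a gene scaled to a common library size, which compare 1 gene between libraries and not different genes. In LLC muscle 1189 genes (7.39%) were called higher and 1002 (6.23%) lower, and the median log2 fold change of all genes was 0.00. With 2 libraries a group the number of calls and their balance rested on each library. There were 852 higher and 403 lower calls without tumour 1, 323 and 230 without tumour 2, 208 and 271 without control 1, and 388 and 462 without control 2. 176 genes were called higher, and 179 lower, in all 4 of these fits.

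The tissue carried the label's markers. The 10 skeletal muscle markers summed to 116694 and 112632 CPM in the tumour libraries, against 129008 and 134085 CPM in the controls, with 2 of the 10 called lower. The 12 epithelial and carcinoma markers summed to 3.18 and 4.42 CPM in the tumour libraries, against 3.27 and 1.65 CPM in the controls, and edgeR and DESeq2 each called 0 of the 7 tested (1 at an unadjusted edgeR p under 0.05). The 12 proliferation markers summed to 6.40 and 5.98 CPM in tumour libraries, against 9.13 and 6.65 CPM in controls. Markers of red blood cells, the 10 erythroid genes, summed to 867 and 2609 CPM in the tumour libraries, against 382 and 295 CPM in the controls, and 6 of 9 were called higher. Fibroblast markers summed to 231 and 170 CPM in tumour libraries, against 399 and 419 CPM in controls (5 of 10 called lower). Tendon markers summed to 22.4 and 18.5 CPM in tumour libraries, against 62.4 and 92.1 CPM in controls (2 of 10 called lower). Of 9 adipocyte markers tested, 2 were called higher, while the sum was 615 and 707 CPM in tumour libraries and 635 and 569 CPM in controls, with *Ucp1* at 0 in all 4. The erythroid, tendon and adipocyte calls, and most fibroblast calls, did not hold in all 4 fits with an LLC library left out. The 10 neutrophil markers summed to 8.39 and 6.80 CPM in tumour libraries, against 2.59 and 1.17 CPM in controls. All 7 that were tested had a positive log2 fold change, with a median of 2.05, and *S100a9* and *Csf3r* were called higher, neither in all 4 fits with a library left out. *Elane*, an enzyme of their granules, was at 0 in all 4 libraries. Macrophage markers summed to 47.6 and 46.9 CPM in tumour libraries, against 50.9 and 39.4 CPM in controls, and edgeR and DESeq2 each called 0 of 10 (0 at an unadjusted edgeR p under 0.05). Mitochondrial transcripts made up 16.9% and 12.1% of fragments in the tumour libraries, against 21.6% and 20.5% in the controls. In whole muscle, fewer cells of a type and less RNA per cell cannot be told apart, and the part of these shifts in the results that follow was not tested.

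NF-kB is a family of transcription factors made of paired subunits. The canonical branch releases RelA from its IκB inhibitors. The noncanonical branch uses the kinase NIK (*Map3k14*) to process the p100 protein of *Nfkb2* into p52, which pairs with RelB. NRF2 (*Nfe2l2*), held back by KEAP1, switches on genes for glutathione, thioredoxin and NADPH supply through antioxidant response elements. Fast-twitch muscle makes much of its ATP by glycolysis, and its wasting in tumour-bearing animals, cachexia, is known for higher expression of genes of protein breakdown.

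Promoters of members on which the results turn are printed because they show the letters these factors are known to bind. Each is the 300 bases from 250 before to 50 after a transcription start, in mouse build GRCm38.p6 from RefSeq, 5′ to 3′ on the gene's strand. Capitals mark matches on either strand to the kappa-B consensus in the first 4, and to the letters TGACNNNGC, an antioxidant response element core, in the last 3. They lie at chr19:46304487-46304786 (plus strand, *Nfkb2*), chr5:92348840-92349139 (minus, *Cxcl10*), chr3:83841559-83841858 (minus, *Tlr2*), chr1:135258423-135258722 (minus, *Elf3*), chr2:152105274-152105573 (plus, *Srxn1*), chr3:122245307-122245606 (plus, *Gclm*) and chr10:82858956-82859255 (plus, *Txnrd1*).
Nfkb2: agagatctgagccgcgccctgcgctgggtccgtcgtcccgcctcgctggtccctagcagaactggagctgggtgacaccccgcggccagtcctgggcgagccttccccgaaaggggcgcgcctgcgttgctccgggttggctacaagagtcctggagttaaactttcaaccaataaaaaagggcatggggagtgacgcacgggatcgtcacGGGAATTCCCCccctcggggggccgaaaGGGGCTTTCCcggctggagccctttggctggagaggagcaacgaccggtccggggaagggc
Cxcl10: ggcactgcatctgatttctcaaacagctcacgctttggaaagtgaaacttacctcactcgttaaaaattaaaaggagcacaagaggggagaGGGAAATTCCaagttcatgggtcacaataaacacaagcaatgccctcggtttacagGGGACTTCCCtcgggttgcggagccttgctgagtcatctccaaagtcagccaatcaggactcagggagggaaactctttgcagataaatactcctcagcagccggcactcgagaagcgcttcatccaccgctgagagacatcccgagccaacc
Tlr2: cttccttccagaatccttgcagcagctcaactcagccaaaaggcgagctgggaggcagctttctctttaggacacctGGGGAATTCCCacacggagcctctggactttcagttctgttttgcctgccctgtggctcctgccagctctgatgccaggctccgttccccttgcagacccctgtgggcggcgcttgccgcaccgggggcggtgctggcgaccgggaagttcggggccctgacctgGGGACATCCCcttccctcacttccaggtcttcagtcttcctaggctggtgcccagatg
Elf3: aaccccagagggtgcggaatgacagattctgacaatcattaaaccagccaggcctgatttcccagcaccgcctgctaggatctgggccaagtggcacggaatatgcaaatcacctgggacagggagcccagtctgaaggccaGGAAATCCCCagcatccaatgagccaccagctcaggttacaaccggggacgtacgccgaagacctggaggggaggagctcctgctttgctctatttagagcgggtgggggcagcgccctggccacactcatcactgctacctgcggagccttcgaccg
Srxn1: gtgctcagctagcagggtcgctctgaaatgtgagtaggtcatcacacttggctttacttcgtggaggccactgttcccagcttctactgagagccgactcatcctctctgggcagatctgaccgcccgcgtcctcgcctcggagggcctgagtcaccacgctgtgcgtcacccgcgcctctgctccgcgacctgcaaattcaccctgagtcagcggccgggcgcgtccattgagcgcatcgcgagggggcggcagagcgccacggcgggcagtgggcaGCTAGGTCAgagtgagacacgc
Gclm: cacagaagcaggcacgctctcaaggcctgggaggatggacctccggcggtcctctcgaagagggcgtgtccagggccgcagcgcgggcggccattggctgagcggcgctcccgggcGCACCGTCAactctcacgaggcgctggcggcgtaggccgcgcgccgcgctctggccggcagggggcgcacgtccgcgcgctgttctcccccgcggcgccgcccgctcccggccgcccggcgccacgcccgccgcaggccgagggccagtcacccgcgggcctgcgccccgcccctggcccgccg
Txnrd1: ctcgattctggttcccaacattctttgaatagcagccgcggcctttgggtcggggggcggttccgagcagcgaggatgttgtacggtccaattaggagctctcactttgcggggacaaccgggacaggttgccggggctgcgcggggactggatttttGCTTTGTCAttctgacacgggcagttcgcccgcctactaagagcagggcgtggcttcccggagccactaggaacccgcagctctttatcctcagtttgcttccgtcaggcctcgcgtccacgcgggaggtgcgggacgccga
The printed *Nfkb2* promoter carries 3 kappa-B matches, of which the first pair overlap, and that of *Cxcl10* a pair of separate ones. *Nfkb2* and *Txnrd1* have 3 promoter entries each. For each of these genes the entry with the most matches was printed, so its matches follow in part from that choice. The kappa-B consensus was found in 4.51% of the 32851 promoters in the table, and in at least 1 promoter of 5.14% of the 27025 genes. It was present for 7 of the 19 NF-kB pathway genes called higher that had a promoter entry (36.8%), and for 13 of the 36 not called (36.1%). TGACNNNGC was found in 12.4% of promoters and for 14% of genes. It was present for 8 of the 21 oxidative stress genes called higher (38.1%) and for 10 of the 44 not called (22.7%). These shares describe letters in the window and carry no test.

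NF-kB pathway genes rose in LLC muscle among receptors, adaptors, inhibitors and the subunits themselves, with *Nfkb2* and *Relb*, the noncanonical pair, furthest up among the subunits. Of 72 members tested, 22 were called higher and 3 lower. Over all genes tested 7.39% were called higher and 6.23% lower. Neutrophil markers were higher in the same tumour libraries, as given above, and their part in these counts was not tested. The members' median log2 fold change was 0.42, and 52 of the 72 had a positive value. The NF-kB calls also rested on single libraries, with 18 higher without tumour 1, 9 without tumour 2, 7 without control 1 and 8 without control 2. The 7 that were called higher in all 4 of these fits were *Nfkb2*, *Relb*, *Rela*, *Eda2r*, *Birc3*, *Cxcl10* and *Ier3*.

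Among the subunits, *Nfkb2* had 63.4 and 101 CPM in the tumour libraries, against 5.09 and 6.24 CPM in the controls. Both tumour libraries lay far above both controls, and the log2 fold change was 3.86 ± 0.29 (SE, edgeR adjusted p = 3.84e-05). *Relb*, whose protein pairs with p52, had 42.0 and 45.6 CPM in the tumour libraries, against 4.71 and 6.61 CPM in the controls, a log2 fold change of 2.95 ± 0.29 (edgeR adjusted p = 8.02e-05). *Rela*, the canonical subunit, had 21.8 and 29.4 CPM in the tumour libraries, against 7.94 and 8.87 CPM in the controls, a log2 fold change of 1.61 ± 0.22 (edgeR adjusted p = 0.000642). The tumour and control libraries did not overlap for any of these 3 subunits. *Nfkb1* (log2 fold change 0.45 ± 0.18, edgeR adjusted p = 0.109) and *Rel* (0.42 ± 0.35, edgeR adjusted p = 0.478) were not called.

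The *Nfkb2* effect in the other models was 2.82 in C26, 1.57 in KPP, 0.15 in KPC and 0.16 in KPCML1, and that of *Relb* was 1.76 in C26, 0.86 in KPP, -0.17 in KPC and -0.15 in KPCML1. The LLC effect minus the mean of the other 4 was 2.69 ± 0.31 (edgeR adjusted p = 0.00221) for *Nfkb2* and 2.37 ± 0.32 (edgeR adjusted p = 0.00404) for *Relb*. *Nfkb2* kept this call when any 1 of the 18 libraries was left out, while *Relb* lost it without control 1 (edgeR adjusted p = 0.0681). For *Rela* the difference of 0.81 was not called (edgeR adjusted p = 0.113).

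Of the 12 inhibitors, 5 were called higher. *Nfkbia* encodes IκBα, itself a classical NF-kB target, and had 27.4 and 42.7 CPM in the tumour libraries, against 16.8 and 14.7 CPM in the controls, a log2 fold change of 1.16 ± 0.25 (edgeR adjusted p = 0.0083). *Nfkbib*, encoding IκBβ, rose by 1.39 ± 0.30 (edgeR adjusted p = 0.00854). The other 3 were *Tnip1*, *Tnip2* and *Cyld*, with log2 fold changes between 0.88 and 0.93. None of the 5 inhibitors was called without tumour 2, without control 1 or without control 2. *Tnfaip3*, encoding the feedback inhibitor A20, had 3.14 and 2.38 CPM in the tumour libraries, against 6.50 and 3.46 CPM in the controls, and was not called (-0.85 ± 0.40, edgeR adjusted p = 0.188).

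Of 11 receptors, 4 were called higher. *Eda2r*, the receptor for ectodysplasin A2, had 148 and 135 CPM in the tumour libraries, against 11.5 and 14.99 CPM in the controls. Its log2 fold change was 3.42 ± 0.39 (SE, edgeR adjusted p = 0.000213), and in the other models 2.65 in C26, 2.47 in KPP, 2.28 in KPC and 1.33 in KPCML1. *Tlr2*, a sensor of bacterial lipoproteins, had 2.94 and 7.58 CPM in the tumour libraries, against 0.594 and 0.564 CPM in the controls, a log2 fold change of 3.18 ± 0.59 (edgeR adjusted p = 0.00369). Tumour 2 was the higher of the tumour libraries, and the call was lost without tumour 2 or control 1 (edgeR adjusted p = 0.053 to 0.0569). *Tlr4*, the sensor of lipopolysaccharide, rose by 1.97 ± 0.44 (edgeR adjusted p = 0.0103) and lost its call in 3 of the 4 fits with a library left out. *Tnfrsf12a*, the receptor for TWEAK, had 35.4 and 30.6 CPM in the tumour libraries, against 35.2 and 28.9 CPM in the controls, which overlap (log2 fold change 0.04 ± 0.55, edgeR adjusted p = 0.98). In the other models its log2 fold change was 2.85 in C26, 1.23 in KPP, 2.22 in KPC and 0.27 in KPCML1, and the difference of LLC from their mean was not called (edgeR adjusted p = 0.215).

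The ligands were scarce. *Il1b*, encoding the cytokine interleukin-1β, had 0.994 and 0.334 CPM in the tumour libraries, against 0.0849 and 0.0752 CPM in the controls. That is 34 fragments in the tumour group against 4 in the control group, a ratio of 8.19 with an exact 95% counting interval of 2.92 to 31.8. Its fitted log2 fold change was 2.98 ± 0.83 (SE, edgeR adjusted p = 0.029), and the call held only without tumour 2. *Tnf* and *Il6* were at 0.239 CPM or below in all 4 libraries and were not tested.

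Of 17 kinases and adaptors, 6 rose. *Map3k14*, the kinase NIK, had 9.19 and 24.9 CPM in the tumour libraries, against 3.91 and 5.07 CPM in the controls, a log2 fold change of 1.92 ± 0.49 (edgeR adjusted p = 0.0189). Tumour 2 lay far above tumour 1, and the gene was called only without tumour 1. *Traf2*, an adaptor of TNF receptors, had 34.6 and 29.8 CPM in the tumour libraries, against 14.7 and 14.5 CPM in the controls, a log2 fold change of 1.14 ± 0.28 (edgeR adjusted p = 0.0161). *Birc3*, the ubiquitin ligase cIAP2, had 17.5 and 21.1 CPM in the tumour libraries, against 7.09 and 5.64 CPM in the controls, a log2 fold change of 1.60 ± 0.28 (edgeR adjusted p = 0.00257). *Tbk1*, *Myd88* and *Ripk2* rose by 0.76 to 0.99 on the log2 scale. Of these 6, *Birc3* was called in all 4 fits with a library left out, *Traf2* in none of them, and the other 4 only without tumour 1. *Traf3*, the adaptor that keeps NIK low, was not called in LLC muscle (0.49 ± 0.22, edgeR adjusted p = 0.16), but its effect differed from the mean of the other 4 (-0.55, -0.57, -0.92 and -1.84) by 1.46 ± 0.25 (edgeR adjusted p = 0.0135). That difference was lost without tumour 2, control 1 or control 2 (edgeR adjusted p up to 0.169).

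The NF-kB targets did not move one way. Of 23 tested, 3 were called higher and 3 lower, with a median log2 fold change of -0.05. *Cxcl10*, a chemokine that attracts T cells, had 7.64 and 8.62 CPM in the tumour libraries, against 0.127 and 0.0376 CPM in the controls. Its controls held 4 fragments in all against 424 in the tumour libraries, a ratio of 102 with an exact 95% counting interval of 39.6 to 377, and the fitted value was 6.59 ± 1.11 (SE, edgeR adjusted p = 0.00211). *Ier3*, an immediate early gene, had 10.3 and 19.7 CPM in the tumour libraries, against 3.31 and 3.12 CPM in the controls, a log2 fold change of 2.22 ± 0.39 (edgeR adjusted p = 0.00248). *Icam1*, an adhesion molecule, rose by 1.33 ± 0.39 (edgeR adjusted p = 0.0343), a call that held only without tumour 1.

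Lower among the targets were *Vegfa*, *Sod2* and *Gadd45b*. *Vegfa*, the angiogenic growth factor, had 164 and 152 CPM in the tumour libraries, against 369 and 356 CPM in the controls, a log2 fold change of -1.20 ± 0.17 (edgeR adjusted p = 0.000642). *Sod2*, the mitochondrial superoxide dismutase, had 205 and 194 CPM in the tumour libraries, against 425 and 359 CPM in the controls, a log2 fold change of -0.97 ± 0.18 (edgeR adjusted p = 0.00384), and lost the call without tumour 2 or control 1 (edgeR adjusted p = 0.056 to 0.0617). *Gadd45b*, a stress-induced gene, had 10.2 and 6.09 CPM in the tumour libraries, against 43.9 and 29.9 CPM in the controls, a log2 fold change of -2.18 ± 0.41 (edgeR adjusted p = 0.00393), and lost the call without tumour 2 (edgeR adjusted p = 0.0719). For all 3 the tumour libraries lay below both controls. *Vegfa* was also called lower in all 4 other models (-0.69 in C26, -1.37 in KPP, -1.24 in KPC and -1.22 in KPCML1).

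**Figure D1:**
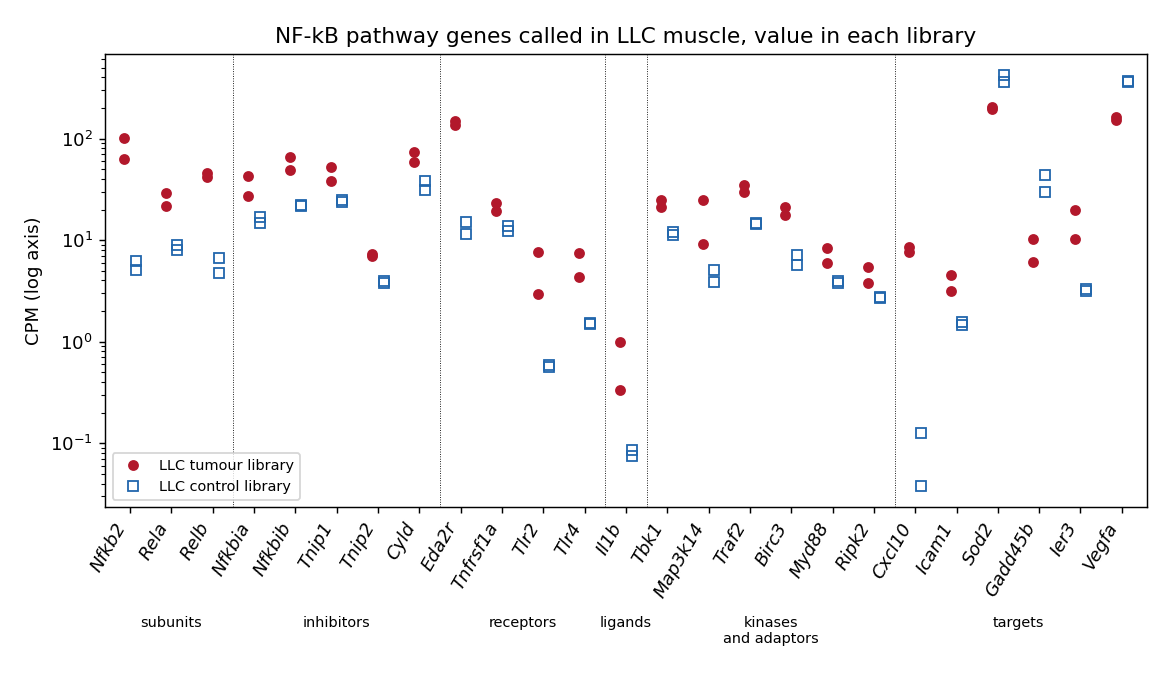
CPM on a log axis of the 25 NF-kB pathway genes called in LLC muscle, with each of the 2 LLC tumour libraries as a filled circle and each of the 2 LLC control libraries as an open square, in order of role. The 3 subunits, the inhibitors, the receptors and the kinases lie above their controls, while *Sod2*, *Gadd45b* and *Vegfa* among the targets lie below them.

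Oxidative stress genes that rose in LLC muscle included those of glutathione, thioredoxin reductase, sulfiredoxin, quinone reductase and the pentose phosphate pathway. Of 77 members tested, 23 were called higher (29.9%, against 7.39% of all genes) and 6 lower (7.79%, near the 6.23% of all genes). The median log2 fold change was 0.47, with 47 of the 77 positive. The higher calls numbered 21 without tumour 1, 16 without tumour 2, 12 without control 1 and 16 without control 2. Genes called higher in all 4 of those fits were *Sqstm1*, *Gsr*, *Gstm1*, *Ggt6*, *Gclm*, *Gstm2*, *Srxn1*, *Txnrd1*, *Nqo1*, *Ftl1*, *Pgd* and *Tkt*. None of the 6 lower calls held in all 4.

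Of 9 regulators, 4 rose. *Nfe2l2*, encoding NRF2, had 45.0 and 61.1 CPM in the tumour libraries, against 22.6 and 21.4 CPM in the controls, a log2 fold change of 1.27 ± 0.29 (edgeR adjusted p = 0.0117). *Keap1*, encoding the protein that targets NRF2 for degradation, rose by 0.74 ± 0.20 (edgeR adjusted p = 0.0278). *Mafg*, a small Maf partner of NRF2, rose by 1.31 ± 0.26 (edgeR adjusted p = 0.00569), and *Sqstm1*, the autophagy receptor p62 that can displace KEAP1, had 1066 and 1393 CPM in the tumour libraries, against 337 and 378 CPM in the controls, a log2 fold change of 1.78 ± 0.26 (edgeR adjusted p = 0.000903). Tumour libraries lay above both controls for all 4 regulators. *Nfe2l2* was called only without tumour 1 and *Keap1* in no fit with a library left out, while *Mafg* lost its call only without control 1 (edgeR adjusted p = 0.0993).

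In the glutathione group, 7 of 24 members rose and 3 fell. *Gclm*, the modifier subunit of the rate-limiting enzyme of glutathione synthesis, had 47.7 and 48.9 CPM in the tumour libraries, against 11.5 and 13.5 CPM in the controls, a log2 fold change of 1.95 ± 0.32 (edgeR adjusted p = 0.00165). *Gsr*, glutathione reductase, had 45.1 and 43.5 CPM in the tumour libraries, against 13.97 and 17.5 CPM in the controls, a log2 fold change of 1.49 ± 0.17 (edgeR adjusted p = 0.000189). *Ggt6*, of the gamma-glutamyltransferase family, had 4.85 and 5.72 CPM in the tumour libraries, against 0.0425 and 0.0376 CPM in the controls. Its controls held 2 fragments in all and its tumour libraries 276, a ratio of 133 with an exact 95% counting interval of 36.5 to 1100, and its fitted value was 6.90 ± 1.10 (SE, edgeR adjusted p = 0.00146). The glutathione transferases *Gstm1* and *Gstm2* rose by 1.46 ± 0.23 (edgeR adjusted p = 0.00138) and 1.91 ± 0.34 (edgeR adjusted p = 0.00258). *Chac1*, which degrades glutathione, rose by 1.66 ± 0.33 (edgeR adjusted p = 0.0053), a call lost without control 1 (edgeR adjusted p = 0.0914). *Gclc*, the catalytic subunit that works with *Gclm*, was not called (0.71 ± 0.29, edgeR adjusted p = 0.123).

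*Mgst3*, a microsomal glutathione transferase, went the other way, with 86.4 and 81.0 CPM in the tumour libraries, against 199 and 196 CPM in the controls, a log2 fold change of -1.24 ± 0.24 (edgeR adjusted p = 0.00488). It was called higher in KPP muscle, and its effects in the other models were -0.03 in C26, 1.25 in KPP, 0.36 in KPC and 0.12 in KPCML1. The LLC effect lay below their mean by a log2 difference of -1.66 ± 0.28 (edgeR adjusted p = 0.0105). The LLC call was lost without tumour 2 (edgeR adjusted p = 0.0662), and the difference without any 1 of the 4 LLC libraries (edgeR adjusted p up to 0.0972). *Gpx8* and *Gsta4* fell by 1.07 and 1.13 on the log2 scale, calls that did not hold in at least 3 of the 4 fits with a library left out.

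Sulfiredoxin and thioredoxin reductase genes rose more in LLC muscle than in the mean of the other models. *Srxn1*, which repairs over-oxidised peroxiredoxins, had 122 and 102 CPM in the tumour libraries, against 19.8 and 25.2 CPM in the controls, a log2 fold change of 2.32 ± 0.21 (edgeR adjusted p = 4.48e-05). In the other models its effect was 0.28 in C26, 0.62 in KPP, 0.78 in KPC and 0.38 in KPCML1, and the difference of LLC from their mean, 1.80 ± 0.23 (edgeR adjusted p = 0.00368), held in all 18 fits that omitted 1 library (edgeR adjusted p up to 0.0478). Over the study, *Srxn1* had 25.2 to 52.9 CPM in the 8 tumour libraries and 6 control libraries of the other models together, below both LLC tumour libraries. *Txnrd1*, the cytosolic thioredoxin reductase, had 167 and 137 CPM in the tumour libraries, against 64.9 and 68.3 CPM in the controls, a log2 fold change of 1.19 ± 0.20 (edgeR adjusted p = 0.00208). Its effect in the other models lay between 0.01 and 0.38, a difference of 1.02 ± 0.23 (edgeR adjusted p = 0.0403) that was lost without any 1 of 10 libraries, the 4 of LLC among them (edgeR adjusted p up to 0.245). *Txn1*, thioredoxin itself, rose by 1.05 ± 0.24 (edgeR adjusted p = 0.0117), a call that held only without tumour 1, and *Prdx5*, a peroxiredoxin, fell by 0.73 on the log2 scale, a call that held in none of these 4 fits.

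Of the quinone, haem and iron genes 4 of 13 rose. *Nqo1*, the NAD(P)H quinone reductase, had 58.4 and 48.2 CPM in the tumour libraries, against 11.5 and 13.04 CPM in the controls, a log2 fold change of 2.12 ± 0.27 (edgeR adjusted p = 0.000436). *Ftl1*, ferritin light chain, had 301 and 318 CPM in the tumour libraries, against 136 and 121 CPM in the controls, a log2 fold change of 1.27 ± 0.17 (edgeR adjusted p = 0.000571). *Hmox1*, haem oxygenase, had 20.9 and 35.1 CPM in the tumour libraries, against 4.42 and 2.44 CPM in the controls, a log2 fold change of 3.04 ± 0.86 (edgeR adjusted p = 0.0307), but was called in none of the 4 fits with a library left out. *Osgin1*, an oxidative stress induced growth inhibitor, rose by 1.89 ± 0.34 (edgeR adjusted p = 0.00318), lost without control 1 (edgeR adjusted p = 0.0581). *Nqo2* fell by 1.44 ± 0.25 on the log2 scale (edgeR adjusted p = 0.00258), lost without tumour 2 (edgeR adjusted p = 0.053). The *Nqo1* difference from the mean of the other models, 1.27, was not called (edgeR adjusted p = 0.0529). *Ephx1*, microsomal epoxide hydrolase, had 12.5 and 13.3 CPM in the tumour libraries, against 10.8 and 8.64 CPM in the controls, and was not called (0.41 ± 0.23, edgeR adjusted p = 0.267). Its difference of 1.50 ± 0.26 (edgeR adjusted p = 0.0151) was called, and was lost without tumour 2, control 1 or control 2. The control libraries of the other models had 13.7 to 17.95 CPM of *Ephx1*, above all 4 LLC libraries.

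For NADPH supply, 2 of 6 members rose. *Pgd*, the NADPH-making 6-phosphogluconate dehydrogenase, had 25.7 and 33.2 CPM in the tumour libraries, against 10.2 and 8.42 CPM in the controls, a log2 fold change of 1.66 ± 0.25 (edgeR adjusted p = 0.000953). *Tkt*, transketolase of the same pentose phosphate pathway, had 23.7 and 18.8 CPM in the tumour libraries, against 6.28 and 5.60 CPM in the controls, a log2 fold change of 1.84 ± 0.32 (edgeR adjusted p = 0.00248). Both were called in all 4 fits with a library left out. *Cat*, the peroxide-degrading catalase, rose by 1.57 ± 0.31 (edgeR adjusted p = 0.00551), lost without control 1 or control 2 (edgeR adjusted p = 0.0506 to 0.0786).

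The effects on *Mt1* and *Sesn1* were smaller in LLC muscle than the mean of the other models. *Mt1*, a metal-binding protein, had 14.8 and 43.0 CPM in the tumour libraries, against 9.51 and 6.54 CPM in the controls, and was not called (1.85 ± 0.64, edgeR adjusted p = 0.0719). Its effect in the other models was 6.85 in C26, 5.07 in KPP, 6.01 in KPC and 3.20 in KPCML1, and the LLC effect was lower than their mean by a log2 difference of -3.43 ± 0.75 (edgeR adjusted p = 0.0378), lost without any 1 of 9 libraries (edgeR adjusted p up to 0.228). *Mt2* had 8.07 and 49.1 CPM in the tumour libraries, against 5.05 and 1.35 CPM in the controls, tumour 2 being the highest (3.17 ± 0.86, edgeR adjusted p = 0.0267, called only without tumour 1). *Sesn1*, a stress-induced regulator of nutrient signalling, had 24.6 and 23.6 CPM in the tumour libraries, against 18.2 and 15.2 CPM in the controls, and was not called (0.53 ± 0.52, edgeR adjusted p = 0.56). The other models' values were 3.09 in C26, 4.10 in KPP, 5.05 in KPC and 3.91 in KPCML1, and the difference was -3.50 ± 0.63 (edgeR adjusted p = 0.0168), lost without any 1 of the 4 LLC libraries (edgeR adjusted p up to 0.135). *Sesn2* rose by 1.28 ± 0.33 (edgeR adjusted p = 0.0225), lost without tumour 2 or control 1 (edgeR adjusted p = 0.239 to 0.243).

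**Figure D2:**
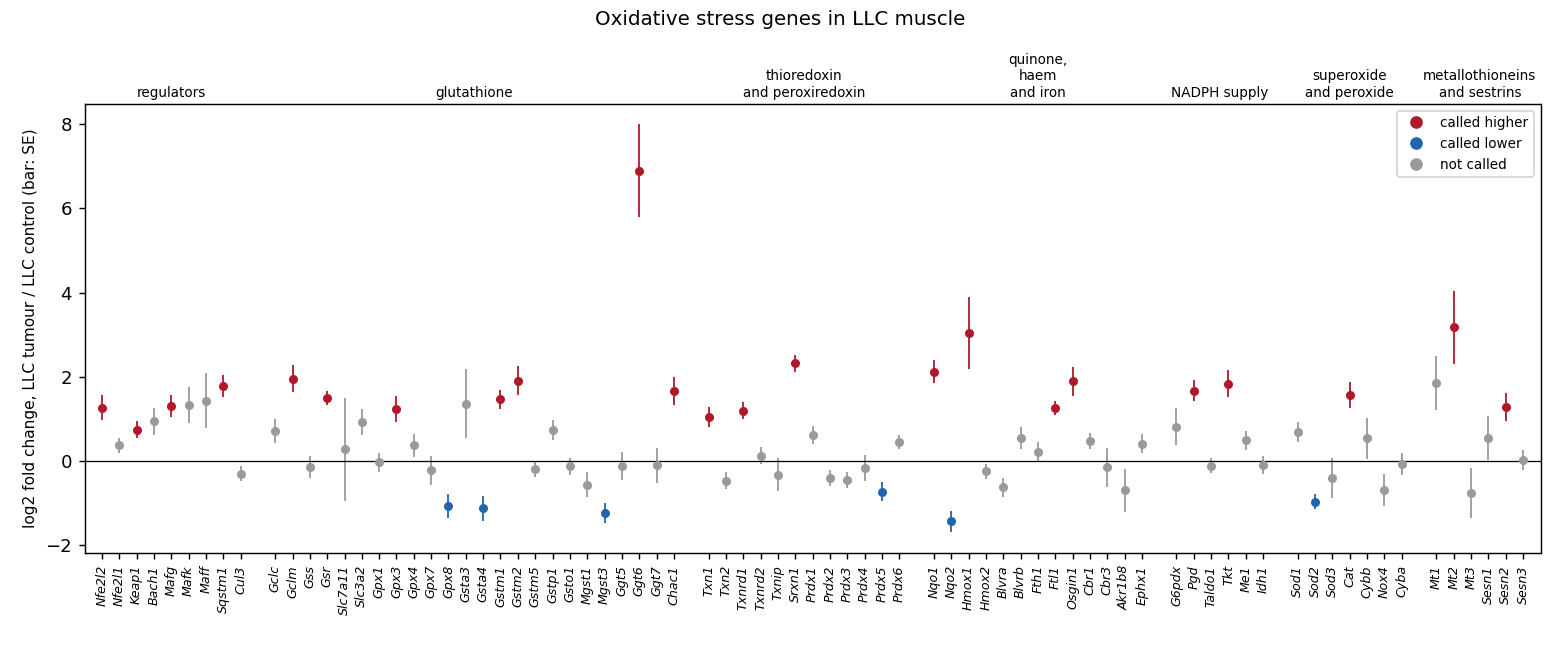
Log2 fold change, LLC tumour over LLC control, with its standard error, of the 77 oxidative stress genes tested, in order of role, with genes called higher in red, called lower in blue and not called in grey. *Ggt6* stands highest at 6.90, and *Srxn1*, *Nqo1* and *Gclm* lie near 2.

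Most genes of lower glycolysis, from triose phosphate to lactate, fell in LLC muscle. Of 65 glucose metabolism genes tested, 22 were called lower and 3 higher, where 6.23% of all genes were called lower, and the median log2 fold change was -0.40. The lower calls numbered 14 without tumour 1, 11 without tumour 2, 10 without control 1 and 15 without control 2. *Slc16a3*, *Pfkfb1*, *Tpi1*, *Eno3*, *Ldha*, *Pgk1*, *Pgam2*, *Pkm* and *Dlat* were called lower in all 4 of these fits, and none of the 3 higher calls was made in all 4.

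In lower glycolysis all 13 genes tested had a negative log2 fold change and 9 were called lower, with a median of -1.18. *Tpi1*, triose phosphate isomerase, had 540 and 535 CPM in the tumour libraries, against 3342 and 2795 CPM in the controls, a log2 fold change of -2.51 ± 0.27 (edgeR adjusted p = 0.00016). *Pgk1*, phosphoglycerate kinase, had 437 and 379 CPM in the tumour libraries, against 1281 and 972 CPM in the controls, a log2 fold change of -1.47 ± 0.21 (edgeR adjusted p = 0.000755). *Pgam2*, the muscle phosphoglycerate mutase, had 554 and 586 CPM in the tumour libraries, against 2294 and 1835 CPM in the controls, a log2 fold change of -1.86 ± 0.32 (edgeR adjusted p = 0.00228). The tumour libraries lay below both controls in each case.

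*Eno3*, the muscle enolase, fell furthest of the list, with 1018 and 1015 CPM in the tumour libraries, against 8507 and 7170 CPM in the controls, a log2 fold change of -2.95 ± 0.35 (edgeR adjusted p = 0.000234). *Pkm*, pyruvate kinase, had 1638 and 1689 CPM in the tumour libraries, against 3893 and 3658 CPM in the controls, a log2 fold change of -1.18 ± 0.21 (edgeR adjusted p = 0.00282). *Ldha*, the lactate dehydrogenase subunit of fast muscle, had 653 and 559 CPM in the tumour libraries, against 3228 and 3124 CPM in the controls, a log2 fold change of -2.39 ± 0.34 (edgeR adjusted p = 0.000754). *Gpd1*, cytosolic glycerol-3-phosphate dehydrogenase, fell by 2.01 ± 0.38 on the log2 scale (edgeR adjusted p = 0.00394), lost without tumour 2 (edgeR adjusted p = 0.0509). *Gapdh*, often taken as a stable reference gene, had 4622 and 3703 CPM in the tumour libraries, against 9172 and 8390 CPM in the controls (-1.08 ± 0.25, edgeR adjusted p = 0.0123), and lost the call in 2 of the 4 fits. The LLC effects of *Tpi1*, *Eno3* and *Ldha* were larger in size than those of each other model, but their differences from the mean were not called (edgeR adjusted p = 0.104, 0.0906 and 0.113).

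Earlier steps moved in both directions. *Pfkm*, the muscle phosphofructokinase, had 1341 and 1652 CPM in the tumour libraries, against 3169 and 3198 CPM in the controls, a log2 fold change of -1.09 ± 0.29 (edgeR adjusted p = 0.0244). *Pfkl*, the liver form, rose by 0.91 ± 0.27 (edgeR adjusted p = 0.0369). *Pfkfb1*, a bifunctional enzyme that sets fructose-2,6-bisphosphate, had 16.8 and 14.1 CPM in the tumour libraries, against 57.3 and 46.2 CPM in the controls, a log2 fold change of -1.75 ± 0.21 (edgeR adjusted p = 0.000255), and its relative *Pfkfb4* had 95.7 and 109 CPM in the tumour libraries, against 36.9 and 51.4 CPM in the controls, a log2 fold change of 1.21 ± 0.22 (edgeR adjusted p = 0.00316). *Fbp2*, the muscle fructose-bisphosphatase, fell by 1.71 ± 0.49 on the log2 scale (edgeR adjusted p = 0.0317). The calls of *Pfkm*, *Pfkl* and *Fbp2* held in none of the 4 fits with a library left out, and that of *Pfkfb4* was lost without control 1 (edgeR adjusted p = 0.0729). *Aldoa*, among the most abundant, had 14034 and 13308 CPM in the tumour libraries, against 18703 and 17530 CPM in the controls, and was not called (edgeR adjusted p = 0.28). *Hk2*, the muscle hexokinase, overlapped between groups (0.13 ± 0.35, edgeR adjusted p = 0.859). *Gpi1*, glucose-6-phosphate isomerase, was not called in LLC muscle (-0.17 ± 0.17, edgeR adjusted p = 0.57) while its effects in the other models were 0.83 in C26, 1.53 in KPP, 0.87 in KPC and 0.44 in KPCML1, a difference of -1.09 ± 0.20 (edgeR adjusted p = 0.0169) that was lost without any 1 of the 4 LLC libraries (edgeR adjusted p up to 0.132).

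Of 7 transport genes 3 were called lower, 1 of them in all 4 fits with a library left out, and 3 had a positive log2 fold change. *Slc16a3*, the lactate exporter MCT4, had 57.6 and 76.6 CPM in the tumour libraries, against 375 and 394 CPM in the controls, a log2 fold change of -2.52 ± 0.31 (edgeR adjusted p = 0.000362). *Slc2a4*, the insulin-responsive glucose transporter GLUT4, had 230.3 and 303 CPM in the tumour libraries, against 456 and 428 CPM in the controls, a log2 fold change of -0.73 ± 0.22 (edgeR adjusted p = 0.0386), called in none of the fits with a library left out. Of 12 genes of pyruvate entry into mitochondria 6 were called lower and 2 had a positive log2 fold change. *Dlat*, a core subunit of pyruvate dehydrogenase, had 117 and 129 CPM in the tumour libraries, against 291 and 274 CPM in the controls, a log2 fold change of -1.20 ± 0.18 (edgeR adjusted p = 0.000857). *Pdha1*, *Pdhb*, *Dld*, *Mpc1* and *Mpc2* fell by 0.62 to 1.23 on the log2 scale, calls that each lapsed in 2 or more of the 4 fits. *Pdk4*, the kinase that inhibits pyruvate dehydrogenase, had 624 and 751 CPM in the tumour libraries, against 305 and 271 CPM in the controls, and was not called (1.26 ± 0.49, edgeR adjusted p = 0.111). Among 20 glycogen genes 1 was called higher and 1 lower, neither in all 4 fits. The higher one, *Phka2*, a phosphorylase kinase subunit, was called in none of the 4 (0.77, edgeR adjusted p = 0.022, with 0.0618 to 0.184 in those fits) nor with a replicate block, and *Pygm*, muscle glycogen phosphorylase, was not called (-0.37 ± 0.35, edgeR adjusted p = 0.543).

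**Figure D3:**
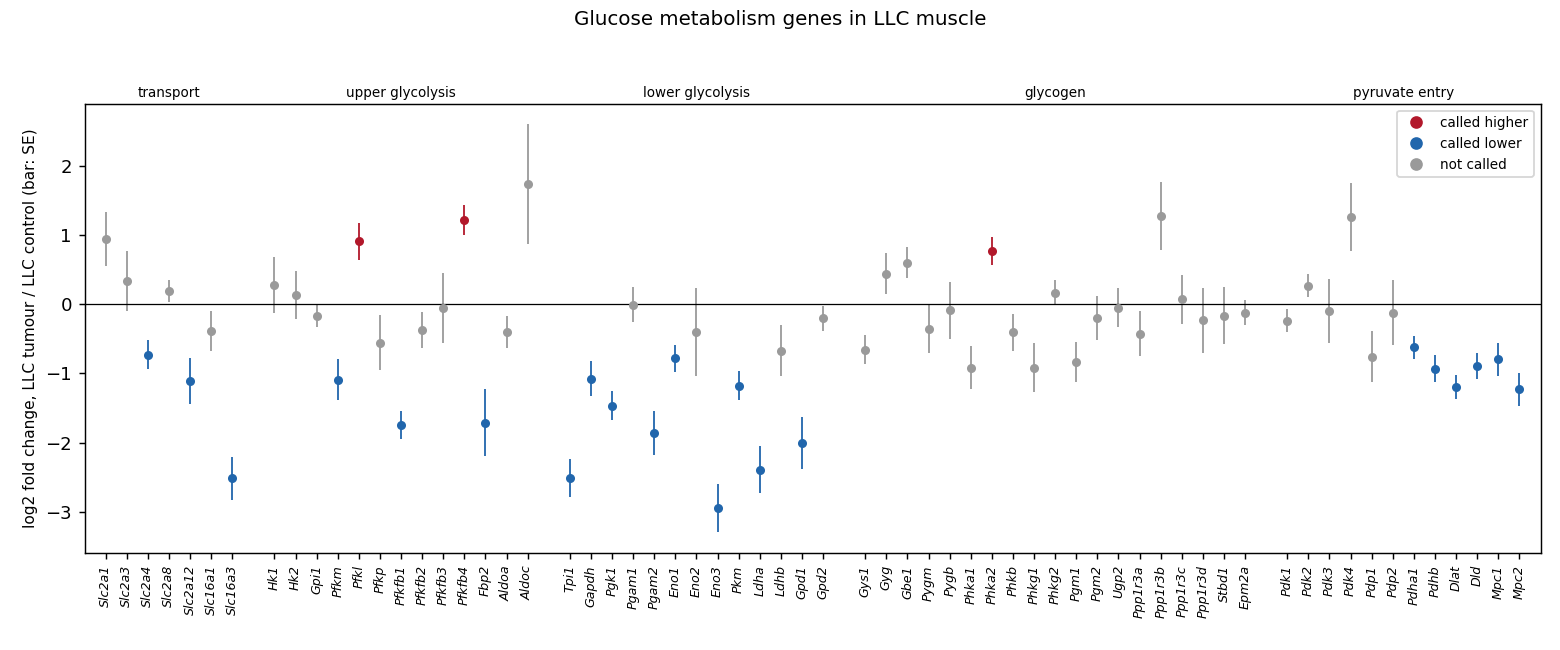
Log2 fold change, LLC tumour over LLC control, with its standard error, of 64 glucose metabolism genes, in order of role, with called genes in red (higher) and blue (lower) and the rest in grey. All 13 lower glycolysis genes lie below 0, down to -2.95 for *Eno3*.

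Transcription factor genes called in LLC muscle were mostly higher. Of 193 tested, 36 were called higher (18.7%, against 7.39% of all genes) and 11 lower (5.7%, near the 6.23% of all genes), with a median log2 fold change of 0.22. Without tumour 1 the higher calls numbered 26, without tumour 2 20, without control 1 10 and without control 2 20. Among the higher ones, *Jun*, *Myc*, *Cebpb*, *Xbp1*, *Cebpd*, *Klf15*, *Klf10*, *Elf3*, *Hdac4* and *Arnt* were called in all 4 fits, and among the lower ones *Ddit3*, *Mafa*, *Rxrg*, *Esrra*, *Irf5* and *Bhlhe41*. Of the 27 homeobox and patterning genes tested, edgeR called 0 (4 at an unadjusted p under 0.05) and DESeq2 called 3.

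Of the immediate early genes, 4 of 16 rose. *Myc* had 14.9 and 23.4 CPM in the tumour libraries, against 1.74 and 2.40 CPM in the controls, a log2 fold change of 3.20 ± 0.38 (edgeR adjusted p = 0.000234). *Jun*, a subunit of AP-1, had 189 and 300.4 CPM in the tumour libraries, against 62.2 and 69.9 CPM in the controls, a log2 fold change of 1.89 ± 0.22 (edgeR adjusted p = 0.000234), against 0.85 in C26, -0.04 in KPP, 0.22 in KPC and 0.50 in KPCML1 in the other models, a difference of 1.51 ± 0.25 (edgeR adjusted p = 0.0101) that was lost without tumour 2, control 1 or control 2 (edgeR adjusted p up to 0.131). *Junb* rose by 2.48 ± 0.68 (edgeR adjusted p = 0.0276) but was called in none of the 4 fits with a library left out. *Fos* and *Egr1* overlapped between tumour and control libraries and were not called (edgeR adjusted p = 0.27 and 0.898).

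Among C/EBP and ATF genes 6 of 15 rose and 1 fell. *Cebpb* had 99.5 and 212 CPM in the tumour libraries, against 25.5 and 30.9 CPM in the controls, a log2 fold change of 2.47 ± 0.33 (edgeR adjusted p = 0.000578). *Cebpd*, an acute-phase regulator, had 40.4 and 76.0 CPM in the tumour libraries, against 9.47 and 11.6 CPM in the controls, a log2 fold change of 2.47 ± 0.40 (edgeR adjusted p = 0.00153). *Ddit3*, encoding the stress factor CHOP, was lower, with 7.40 and 7.80 CPM in the tumour libraries, against 27.9 and 20.4 CPM in the controls, a log2 fold change of -1.67 ± 0.27 (edgeR adjusted p = 0.00163). *Xbp1*, of the unfolded protein response, rose by 1.05 ± 0.15 (edgeR adjusted p = 0.00067). *Atf4* was not called (0.36 ± 0.24, edgeR adjusted p = 0.354).

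The FoxO factors are known for driving atrophy genes in wasting muscle, and 2 rose while 1 fell. *Foxo1* had 20.4 and 63.9 CPM in the tumour libraries, against 10.4 and 10.3 CPM in the controls, a log2 fold change of 2.03 ± 0.55 (edgeR adjusted p = 0.0259). Tumour 2 lay far above tumour 1, and *Foxo1* was called only without tumour 1. *Foxo3* rose by 1.50 ± 0.36 (edgeR adjusted p = 0.0151), also called only without tumour 1. *Foxo6* had 2.94 and 3.46 CPM in the tumour libraries, against 8.28 and 8.12 CPM in the controls, a log2 fold change of -1.36 ± 0.27 (edgeR adjusted p = 0.00596), and lost its call without tumour 1 or control 1 (edgeR adjusted p = 0.0503 to 0.0596). The fall of *Foxo6* was larger in the other models (-3.70 in C26, -3.56 in KPP, -3.99 in KPC and -3.79 in KPCML1), with 0.289 to 0.731 CPM in their 8 tumour libraries. The LLC effect differed from their mean by 2.40 ± 0.32 (edgeR adjusted p = 0.00404), a call lost without control 1 (edgeR adjusted p = 0.0537). The glucocorticoid-responsive *Klf15* had 58.3 and 88.1 CPM in the tumour libraries, against 18.8 and 24.6 CPM in the controls, a log2 fold change of 1.75 ± 0.26 (edgeR adjusted p = 0.000953), and *Klf10* rose by 1.89 ± 0.32 (edgeR adjusted p = 0.00215).

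*Elf3*, an epithelial ETS factor whose promoter is printed above, had 12.8 and 12.8 CPM in the tumour libraries, against 0.17 and 0.301 CPM in the controls, a log2 fold change of 5.72 ± 0.92 (edgeR adjusted p = 0.0015). *Runx1*, known to rise in denervated muscle, had 9.23 and 19.8 CPM in the tumour libraries, against 1.15 and 1.47 CPM in the controls, a log2 fold change of 3.47 ± 0.63 (edgeR adjusted p = 0.00339), lost without control 1 (edgeR adjusted p = 0.0593). *Hdac4*, a deacetylase also induced by denervation, had 108 and 134 CPM in the tumour libraries, against 20.4 and 27.1 CPM in the controls, a log2 fold change of 2.35 ± 0.32 (edgeR adjusted p = 0.000633). Its effects in the other models were 0.74 in C26, 0.25 in KPP, 1.10 in KPC and 0.15 in KPCML1, and the difference of 1.78 ± 0.35 (edgeR adjusted p = 0.0263) was lost without any 1 of 7 libraries (edgeR adjusted p up to 0.24). *Myog*, the myogenic factor myogenin, rose by 2.97 ± 0.85 (edgeR adjusted p = 0.0319), but was called in none of the 4 fits. *Myod1* had 22.1 and 56.3 CPM in the tumour libraries, against 10.7 and 17.7 CPM in the controls, and was not called (1.47 ± 0.59, edgeR adjusted p = 0.121). In the other models the *Myod1* effect was -0.64 in C26, -1.63 in KPP, -3.52 in KPC and -2.11 in KPCML1, and the LLC effect lay above their mean by 3.44 ± 0.70 (edgeR adjusted p = 0.0283), lost without any 1 of 6 libraries (edgeR adjusted p up to 0.245). *Mafa*, a large Maf factor of fast fibres, fell by 1.63 ± 0.29 on the log2 scale (edgeR adjusted p = 0.00318).

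Of 29 nuclear receptor genes 5 were called higher and 4 lower. Without control 1 edgeR called 0 higher (5 at an unadjusted p under 0.05) and 3 lower, and from the 4 LLC libraries alone 5 higher and 8 lower. *Esrra*, a regulator of mitochondrial genes, had 84.5 and 81.2 CPM in the tumour libraries, against 181 and 193 CPM in the controls, a log2 fold change of -1.17 ± 0.19 (edgeR adjusted p = 0.00167). *Rxrg*, a retinoid X receptor, had 20.0 and 16.0 CPM in the tumour libraries, against 61.8 and 59.0 CPM in the controls, a log2 fold change of -1.75 ± 0.25 (edgeR adjusted p = 0.000857). *Ppard* rose by 1.27 ± 0.22 (edgeR adjusted p = 0.00261), lost without control 1 (edgeR adjusted p = 0.0629). *Irf5*, an interferon regulatory factor, had 2.82 and 4.94 CPM in the tumour libraries, against 35.0 and 21.9 CPM in the controls, a log2 fold change of -2.87 ± 0.43 (edgeR adjusted p = 0.000953), with -3.38 in C26, -3.14 in KPP, -4.23 in KPC and -3.41 in KPCML1 in the other models. *Trp63*, a p53 relative, had 13.96 and 24.3 CPM in the tumour libraries, against 2.46 and 2.44 CPM in the controls, a log2 fold change of 2.96 ± 0.54 (edgeR adjusted p = 0.00349), lost without control 1 (edgeR adjusted p = 0.0504). *Stat3* was not called (0.79 ± 0.36, edgeR adjusted p = 0.169).

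Clock output genes that were called lower in the other models were not called in LLC muscle, and the difference itself was called. *Dbp*, a PAR bZIP factor under clock control, had 140.3 and 106 CPM in the tumour libraries, against 114 and 102 CPM in the controls, which overlap, and was not called (0.19 ± 0.30, edgeR adjusted p = 0.729). In the other models its effect was -3.47 in C26, -4.24 in KPP, -4.78 in KPC and -2.86 in KPCML1, called lower in each, with 3.94 to 23.2 CPM in their 8 tumour libraries and 123 to 154 CPM in their 6 control libraries. The difference of LLC from their mean was 4.03 ± 0.36 (edgeR adjusted p = 0.000354). *Hlf*, of the same family, had 10.3 and 10.2 CPM in the tumour libraries, against 8.87 and 11.2 CPM in the controls, overlapping as well, with -1.89 in C26, -1.79 in KPP, -2.29 in KPC and -1.59 in KPCML1 in the other models and a difference of 1.92 ± 0.23 (edgeR adjusted p = 0.00296). Both differences held in all 18 fits that omitted 1 library (edgeR adjusted p up to 0.0108 for *Dbp* and 0.0351 for *Hlf*). *Arntl*, encoding the clock activator BMAL1, overlapped between the LLC groups (-0.16 ± 0.41, edgeR adjusted p = 0.846), against 2.45 in C26, 1.55 in KPP, 3.54 in KPC and 1.20 in KPCML1 in the other models. Its difference of -2.35 ± 0.48 (edgeR adjusted p = 0.0287) was lost without any 1 of 8 libraries (edgeR adjusted p up to 0.163). The LLC controls had less *Dbp* and less *Hlf* than every control library of the other models, where *Hlf* had 12.19 to 21.85 CPM. *Arntl* had 11.73 and 12.71 CPM in the LLC tumour libraries, against 11.04 and 16.31 CPM in the LLC controls. Control libraries of the other models had 2.523 to 7.676 CPM of *Arntl*, apart from the second KPP control at 14.73 CPM. Their tumour libraries had 12.86 to 105.1 CPM. The part of these control levels in the *Arntl* difference was not tested. No fit took account of the time of day of collection, and its part in these differences was not tested. *Dbp*, *Hlf* and *Arntl* were singled out after their values were seen.

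The period gene *Per2*, a clock repressor, had 19.3 and 28.4 CPM in the tumour libraries, against 6.20 and 6.91 CPM in the controls, a log2 fold change of 1.86 ± 0.40 (edgeR adjusted p = 0.00822). The LLC controls were the lowest of the study, since the 6 control libraries of the other models had 8.94 to 27.2 CPM and the LLC tumour libraries lay within or just above that range. The LLC call was lost without tumour 2, control 1 or control 2 (edgeR adjusted p = 0.0606 to 0.103). *Per1* rose by 2.42 ± 0.58 (edgeR adjusted p = 0.0142) and *Cry2* by 1.84 ± 0.52 (edgeR adjusted p = 0.0298), *Per1* losing its call without tumour 2 or control 1 and *Cry2* holding it in 1 of the 4 fits. *Bhlhe41*, a further repressor, had 20.8 and 21.7 CPM in the tumour libraries, against 83.8 and 69.7 CPM in the controls, a log2 fold change of -1.85 ± 0.26 (edgeR adjusted p = 0.000747). *Tef*, the third PAR bZIP gene, had 379.6 and 404 CPM in the tumour libraries, against 217 and 232 CPM in the controls, a log2 fold change of 0.81 ± 0.15 (edgeR adjusted p = 0.00349), lost without control 1 (edgeR adjusted p = 0.0749) and with counts scaled for transcript length (0.52, edgeR adjusted p = 0.0687). The difference of *Tef* from the other models was 0.98 ± 0.17 (edgeR adjusted p = 0.0135), lost without any 1 of 4 libraries (edgeR adjusted p up to 0.175).

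**Figure D4:**
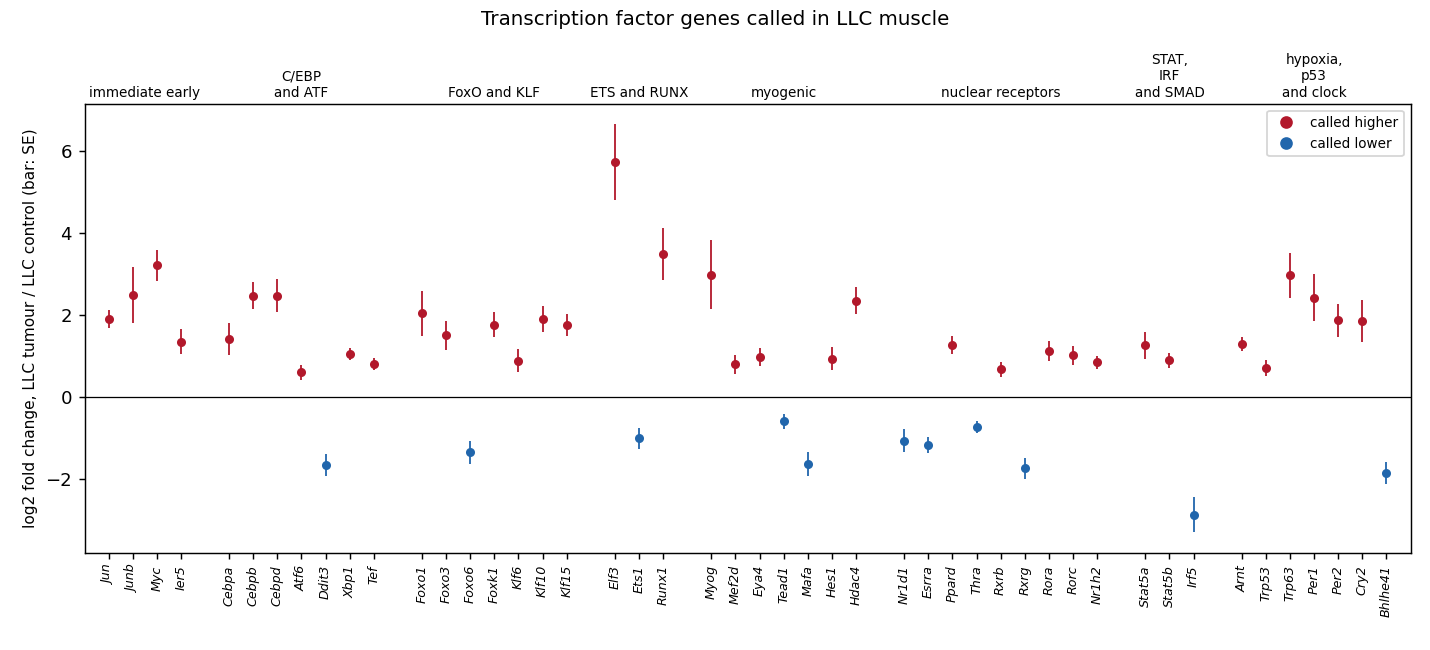
Log2 fold change, LLC tumour over LLC control, with its standard error, of the 47 transcription factor genes called in LLC muscle, in order of family, with higher calls in red and lower calls in blue. *Elf3* stands at 5.72 and *Irf5* at -2.87, the ends of the range.

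Few genes were called as changed in LLC muscle alone by the test of the difference. In simulated counts with changes in the LLC tumour libraries only, that test called 16% of 2-fold and 75% of 4-fold changes. Genes that changed in LLC alone can therefore be missing from the counts that follow. The simulation changed 100 genes by each fold and no gene in the other models, unlike the data. It scored the test of the difference alone and not the full rule for genes called only in LLC. Its percentages therefore do not carry over to those counts. Of the 16096 genes, 395 (2.45%) were called for LLC and in none of the other models. 45 (0.28%) also had a called difference from the mean of the other 4 effects in the same direction, 31 higher (0.193%) and 14 lower (0.087%). The difference itself was called for 231 genes (1.44%, with 0.864% higher and 0.572% lower), and among the 4 lists for 5 NF-kB, 6 oxidative stress, 1 glucose and 11 transcription factor genes. The count of 45 was 19 without tumour 1, 7 without tumour 2, 3 without control 1 and 3 without control 2. It was 22 and 27 without the first and second C26 control, 17 without the first Matrigel control, 28 without the second KPCML1 library and 82 without the second KPC library. When an unadjusted p of at least 0.05 was asked of each other model, 16 genes were left, and 1, *Emc10*, when the difference from each other effect had to be called. Taken singly, those differences were called for 0.466% of genes against C26, 8.27% against KPP, 1.85% against KPC and 0.18% against KPCML1.

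Among the genes called higher only in LLC, *Slc6a9*, the glycine transporter GLYT1, had 31.1 and 29.1 CPM in the tumour libraries, against 2.55 and 4.13 CPM in the controls. Its log2 fold change was 3.17 ± 0.43 (SE, edgeR adjusted p = 0.000633), against 0.30 in C26, 0.94 in KPP, 0.35 in KPC and 0.84 in KPCML1 in the other models, a difference of 2.56 ± 0.47 (edgeR adjusted p = 0.0189). *Flrt1*, a fibronectin leucine-rich transmembrane protein, had 7.04 and 7.77 CPM in the tumour libraries, against 1.10 and 1.99 CPM in the controls, a log2 fold change of 2.25 ± 0.32 (edgeR adjusted p = 0.000754), against -0.89 in C26, 0.14 in KPP, 0.70 in KPC and -0.20 in KPCML1. *Htra4*, a serine protease, had 20.7 and 7.73 CPM in the tumour libraries, against 1.36 and 1.84 CPM in the controls, a log2 fold change of 3.14 ± 0.71 (edgeR adjusted p = 0.0106), and lost this call without tumour 1, control 1 or control 2 (edgeR adjusted p = 0.0682 to 0.123). *Mtss1l*, an actin-binding protein of membrane ruffles, had 198 and 183 CPM in the tumour libraries, against 49.2 and 74.2 CPM in the controls, a log2 fold change of 1.62 ± 0.19 (edgeR adjusted p = 0.000236). *Ckap4*, a membrane protein of the endoplasmic reticulum, rose by 1.36 ± 0.22 (edgeR adjusted p = 0.00158), *Angel1* by 1.44 ± 0.22 (edgeR adjusted p = 0.00102) and *Samd8* by 0.80 ± 0.13 (edgeR adjusted p = 0.00167). For *Ckap4* (4.25 and 3.76 CPM) and *Angel1* (4.16 and 4.73 CPM) the LLC controls were the lowest controls of the study. Those of the other models had 4.50 to 6.69 and 6.28 to 8.98 CPM, and the LLC tumour libraries lay above these ranges. The differences of *Flrt1* and *Mtss1l* were each lost without control 1 alone, and those of the other 5 without 3 or 4 of the LLC libraries (edgeR adjusted p up to 0.195).

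*Emc10*, a subunit of the endoplasmic reticulum membrane protein complex, had 29.7 and 25.2 CPM in the tumour libraries, against 7.85 and 5.30 CPM in the controls, a log2 fold change of 2.06 ± 0.32 (edgeR adjusted p = 0.00115). In the authors' deposited table its log2 fold change was 0.09 with an adjusted p of 0.79, and the value here was 1.71 with counts scaled for transcript length. The cause of this gap was not tested. The difference from the other models was 2.48 ± 0.36 (edgeR adjusted p = 0.00561), lost without control 2 (edgeR adjusted p = 0.0688). *Emc10* was the only 1 of 143 named genes in that table whose value lay more than 0.5 (log2) from the length-scaled estimate. That comparison does not cover the main values printed here, which come from counts without length scaling. For *Tfrc* the authors' value was -3.04 and the length-scaled one -3.03, both smaller falls than the main value printed below.

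Among the genes lower only in LLC, *Cd24a*, a surface glycoprotein, had 81.2 and 54.2 CPM in the tumour libraries, against 418 and 323 CPM in the controls, a log2 fold change of -2.45 ± 0.31 (edgeR adjusted p = 0.000389), against -0.60 in C26, -0.63 in KPP, -0.55 in KPC and -0.58 in KPCML1. Its difference of -1.86 ± 0.34 (edgeR adjusted p = 0.0182) was lost without any 1 of 4 libraries (edgeR adjusted p up to 0.169). *Dtna*, α-dystrobrevin of the dystrophin complex, had 50.8 and 55.8 CPM in the tumour libraries, against 132 and 114 CPM in the controls, a log2 fold change of -1.21 ± 0.20 (edgeR adjusted p = 0.00167). The *Dtna* difference of -1.13 ± 0.22 (edgeR adjusted p = 0.0263) was lost without any 1 of 6 libraries. The LLC controls had the most *Dtna* of all control libraries, those of the other models having 66.2 to 106.4 CPM. Both LLC tumour libraries lay below that range. *Thra*, a thyroid hormone receptor, fell by 0.74 ± 0.15 on the log2 scale (edgeR adjusted p = 0.00595), lost without tumour 1 or control 2 (edgeR adjusted p = 0.0635 to 0.0667), and *Dhrs7* by 0.84 ± 0.24 (edgeR adjusted p = 0.0334), called in none of the 4 fits.

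Some genes moved in LLC muscle against the direction of another model. There were 74 such genes (0.46%) called both ways. *Agt*, angiotensinogen, had 0.875 and 1.45 CPM in the tumour libraries, against 9.72 and 10.4 CPM in the controls, a log2 fold change of -3.11 ± 0.33 (edgeR adjusted p = 0.000143), while it was called higher in KPP and KPC (0.14 in C26, 1.24 in KPP, 1.61 in KPC and 0.28 in KPCML1). Its difference of -3.92 ± 0.37 (edgeR adjusted p = 0.000354) held in all 18 fits that omitted 1 library (edgeR adjusted p up to 0.00462). *Ptpn4*, a protein tyrosine phosphatase, had 10.3 and 9.18 CPM in the tumour libraries, against 31.9 and 39.4 CPM in the controls, a log2 fold change of -1.87 ± 0.22 (edgeR adjusted p = 0.000255), and was called higher in KPC. *Napepld*, which makes N-acylethanolamines, had 10.5 and 7.77 CPM in the tumour libraries, against 16.8 and 16.9 CPM in the controls, a log2 fold change of -0.89 ± 0.18 (edgeR adjusted p = 0.00666), lost without tumour 2 or control 1 (edgeR adjusted p = 0.0523 to 0.111), and was called higher in KPP and KPC. The difference was -1.96 ± 0.25 (edgeR adjusted p = 0.00368) for *Ptpn4* and -1.55 ± 0.21 (edgeR adjusted p = 0.00409) for *Napepld*, and both were also called in all 18 fits. For these genes the LLC controls were the highest control libraries of the study. Controls of the other models had 16.3 to 24.97 CPM of *Ptpn4* and 10.58 to 12.93 CPM of *Napepld*. The LLC tumour libraries lay below those ranges.

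*Ces2c*, a carboxylesterase, had 7.83 and 7.25 CPM in the tumour libraries, against 0.297 and 0.301 CPM in the controls, a log2 fold change of 4.64 ± 0.71 (edgeR adjusted p = 0.00122). It was higher in C26 and called lower in KPC and KPCML1 (3.66 in C26, 1.06 in KPP, -3.93 in KPC and -3.89 in KPCML1), where its counts were low. It had 0.0305 and 0.0355 CPM in KPC tumour libraries and 0.0584 and 0 CPM in KPCML1 tumour libraries, against 0.746 and 0.375 CPM in the Matrigel controls. Those are 2 fragments in each tumour group against 34 in the controls, a ratio of 0.058 for KPC (exact 95% counting interval 0.00675 to 0.226) and of 0.0606 for KPCML1 (0.00706 to 0.237), so that the fitted values there are uncertain. *App*, the amyloid precursor protein, had 96.0 and 132 CPM in the tumour libraries, against 42.5 and 53.3 CPM in the controls, a log2 fold change of 1.25 ± 0.22 (edgeR adjusted p = 0.00233), against 0.01 in C26, -1.01 in KPP, -0.17 in KPC and 0.22 in KPCML1, and lost the call without control 1 (edgeR adjusted p = 0.0565). *Adh1*, an alcohol dehydrogenase, rose by 0.92 ± 0.19 (edgeR adjusted p = 0.00627), lost without control 1 (edgeR adjusted p = 0.111), and *Prickle1*, of planar cell polarity, by 1.06 ± 0.30 (edgeR adjusted p = 0.0307), called in none of the 4 fits. Both were called lower in KPP, and *Adh1* also in KPC. In the LLC controls *Adh1*, *Prickle1* and *App* were lower than in each of the 6 control libraries of the other models. Those 6 had 23.6 to 42.85 CPM of *Adh1*, 3.40 to 6.01 CPM of *Prickle1* and 67.8 to 100.3 CPM of *App*. The LLC controls had 11.1 and 14.6 CPM of *Adh1* and 2.46 and 2.37 CPM of *Prickle1*. The LLC tumour libraries had 26.7 and 22.15 CPM of *Adh1* and 5.09 and 4.98 CPM of *Prickle1*.

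**Figure D5:**
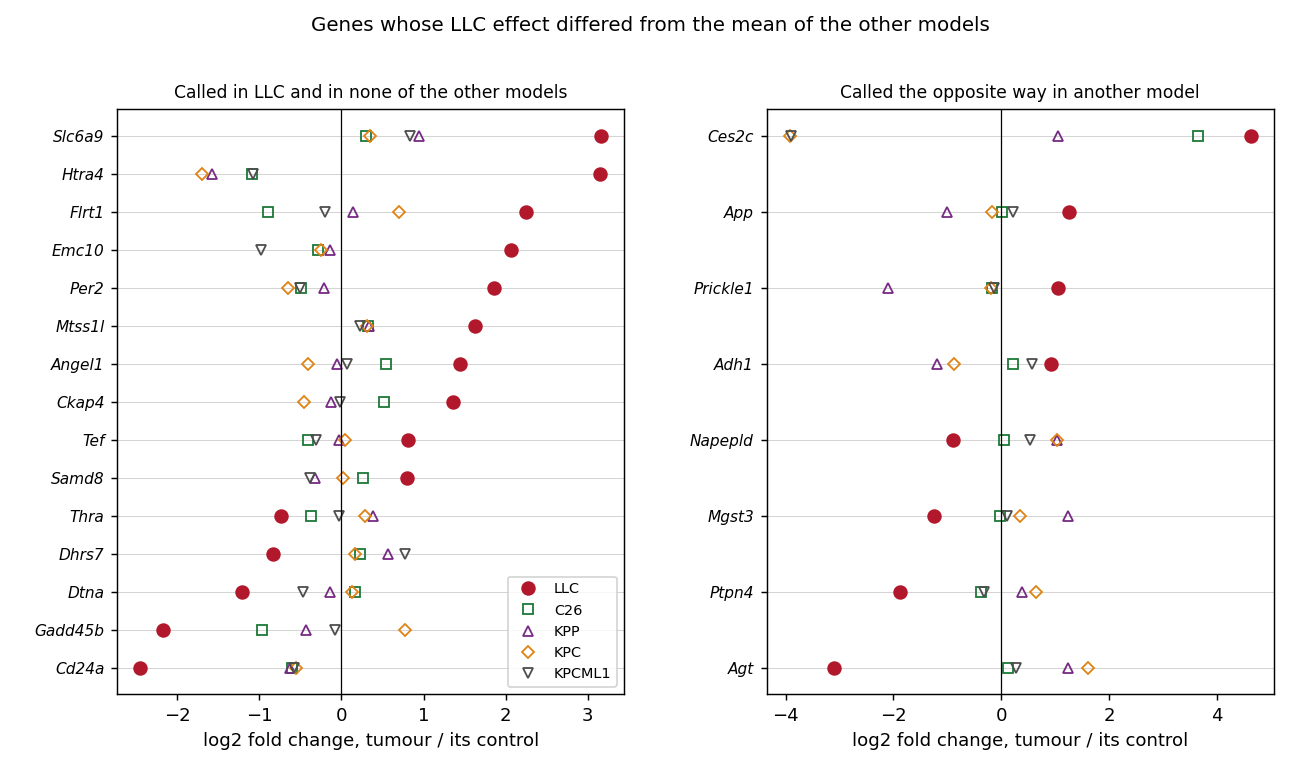
Fitted log2 fold change, tumour over its own control, in LLC (filled circle) and the other 4 models (open symbols), for 15 named genes called in LLC and in none of the other models (left) and the 8 named genes called in the opposite direction in another model (right). The LLC point lies outside the range of the other symbols for every gene shown, from -2.45 for *Cd24a* to 3.17 for *Slc6a9* on the left.

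Among the largest changes outside the lists, *Gadd45a*, a growth arrest gene raised in denervated and fasted muscle, had 263 and 409 CPM in the tumour libraries, against 24.3 and 16.0 CPM in the controls, a log2 fold change of 4.06 ± 0.37 (edgeR adjusted p = 4.51e-05), against 2.37 in C26, 1.60 in KPP, 2.59 in KPC and 1.82 in KPCML1 in the other models, a difference of 1.97 ± 0.38 (edgeR adjusted p = 0.0241) that was lost without any 1 of 5 libraries (edgeR adjusted p up to 0.164). *Depp1*, a FoxO-responsive gene, had 26.9 and 68.3 CPM in the tumour libraries, against 2.12 and 1.69 CPM in the controls, a log2 fold change of 4.64 ± 0.50 (edgeR adjusted p = 0.000158). *Cpne2*, a calcium-dependent membrane-binding copine, had 47.1 and 114 CPM in the tumour libraries, against 3.82 and 4.10 CPM in the controls, a log2 fold change of 4.35 ± 0.44 (edgeR adjusted p = 0.000105), with 3.03 in C26, 2.45 in KPP, 0.69 in KPC and -0.03 in KPCML1 in the other models and a difference of 2.81 ± 0.47 (edgeR adjusted p = 0.0105), lost without tumour 2, control 1 or control 2 (edgeR adjusted p up to 0.116). *Lpin2*, a phosphatidate phosphatase, had 44.6 and 32.0 CPM in the tumour libraries, against 2.80 and 2.18 CPM in the controls, a log2 fold change of 3.94 ± 0.54 (edgeR adjusted p = 0.000637). *Sik1*, a salt-inducible kinase, rose by 3.88 ± 0.53 (edgeR adjusted p = 0.000633), *Tmem252* by 3.94 ± 0.34 (edgeR adjusted p = 4.45e-05), and the potassium channel *Kcnk5* by 4.84 ± 0.74 (edgeR adjusted p = 0.0011).

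At the other end, *Col9a1*, a cartilage-type collagen chain, had 0.159 and 0.149 CPM in the tumour libraries, against 4.50 and 5.64 CPM in the controls, a log2 fold change of -5.00 ± 0.50 (edgeR adjusted p = 9.04e-05). Its difference from the other models, -2.91 ± 0.56 (edgeR adjusted p = 0.0239), was lost without any 1 of 5 libraries (edgeR adjusted p up to 0.163). *Tfrc*, the transferrin receptor, had 31.0 and 26.9 CPM in the tumour libraries, against 391 and 334 CPM in the controls, a log2 fold change of -3.65 ± 0.51 (edgeR adjusted p = 0.00066), with -3.27 in C26, -2.51 in KPP, -3.19 in KPC and -2.96 in KPCML1 in the other models. *Nmrk2*, a nicotinamide riboside kinase of muscle, had 10.2 and 13.2 CPM in the tumour libraries, against 230 and 166 CPM in the controls, a log2 fold change of -4.08 ± 0.55 (edgeR adjusted p = 0.000571). *Ostn*, the muscle-secreted musclin, had 0.199 and 0.409 CPM in the tumour libraries, against 5.43 and 6.58 CPM in the controls, a log2 fold change of -4.28 ± 0.61 (edgeR adjusted p = 0.000739). *Mettl21c*, a muscle lysine methyltransferase, fell by 3.68 ± 0.58 on the log2 scale (edgeR adjusted p = 0.00141), and *Ntf5*, a neurotrophin, by 3.57 ± 0.53 (edgeR adjusted p = 0.000919). *Ptx3*, *Ccdc146*, *Nrep* and *Irx3os* had values of -3.65 to -4.85. *Slc15a2*, a peptide transporter, had 0.239 and 0.0743 CPM in the tumour libraries, against 6.07 and 11.6 CPM in the controls, with 8 fragments in the tumour libraries and 451 in the controls, and its call (-5.80 ± 1.45, edgeR adjusted p = 0.0179) held in none of the 4 fits with a library left out. Except for *Slc15a2*, all of the largest changes given here were called in each of those 4 fits.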

How the data were processed

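The authors deposited, for each of the 18 libraries, a table of Salmon estimated counts and TPM per transcript, and 1 table of log2 fold changes with adjusted p-values. Per the submitters' processing notes, bcl2fastq 2.20, FastQC, Salmon and DESeq2 were used with build mm10. No Salmon version or index is stated there. The deposited estimated counts were summed per gene through transcript identifiers of GENCODE M21 (139958 transcripts matched, 867 not, holding 0.486% to 0.586% of fragments in the LLC libraries), then rounded. TPM served only for the alternative with counts scaled for transcript length. Values from the authors' deposited table of log2 fold changes and p-values are named as such where printed.

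Genes were filtered with filterByExpr, leaving 16096 of 29456 with a count, normalised by TMM and fitted with edgeR 4.0.16 (R 4.3.3, limma 3.58.1) quasi-likelihood over all 18 libraries in 9 groups, so that groups share 1 estimate of the spread. P-values were adjusted by Benjamini-Hochberg, two-sided. The alternatives were relative log expression factors, DESeq2 1.42.0, no filter, a replicate block, length scaling, a fold threshold of 2, the 4 LLC libraries alone, and leaving out libraries in turn. The fitting code was tested on simulated data. Counting intervals are exact and cover counting error only. P-values measure the spread between libraries that the labels call biological replicates. Promoters are from RefSeq on GRCm38.p6. Strand use in the counting is not given, so reads of overlapping or antisense genes and of close paralogs may be shared.

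The genes described and the gene lists were chosen with earlier results of these data known. Genes were named when they were list members among the most significant calls of their role, among the 12 largest changes each way with a mean of at least 5 CPM in the higher group, among the 10 each way called only in LLC, or among 8 called in the opposite direction in another model. Other list members, called or not, were singled out after their values were seen. Some genes the rule chose are not reported here, and they remain in every fit and in the counts over all genes and lists.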

Additional observations from a re-analysis of the deposited data

Results flagged for a closer look

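For 44 of the genes described, the LLC effect differed from the mean of the effects in the 4 other models by edgeR's test of that difference, at an adjusted p under 0.05 over all genes tested. All values here are log2 differences, LLC minus that mean.

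Among NF-kB pathway genes the differences were 2.69 for *Nfkb2*, 2.37 for *Relb*, 2.93 for *Tlr2*, 1.46 for *Traf3* and -2.00 for *Gadd45b*. Among oxidative stress genes they were 1.80 for *Srxn1*, 1.02 for *Txnrd1*, 1.50 for *Ephx1*, -1.66 for *Mgst3*, -3.43 for *Mt1* and -3.50 for *Sesn1*. The only glucose metabolism gene among them was *Gpi1* at -1.09.

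Among transcription factor genes the differences were 1.51 for *Jun*, 0.98 for *Tef*, 4.03 for *Dbp*, 1.92 for *Hlf*, 2.40 for *Foxo6*, 3.44 for *Myod1*, 1.04 for *Nfic*, 1.78 for *Hdac4*, 2.33 for *Per2*, -0.81 for *Thra* and -2.35 for *Arntl*. 

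Of genes outside the lists that changed only in LLC or most there, the higher ones were *Emc10* (2.48), *Flrt1* (2.31), *Mtss1l* (1.33), *Samd8* (0.91), *Angel1* (1.40), *Htra4* (4.50), *Ckap4* (1.38), *Slc6a9* (2.56), *Cpne2* (2.81), *Gadd45a* (1.97) and *Ces2c* (5.41). The lower ones were *Col9a1* (-2.91), *Cd24a* (-1.86), *Dtna* (-1.13) and *Dhrs7* (-1.27). Of the others called in the opposite direction in another model, the differences were 1.25 for *Adh1*, 1.49 for *App*, 1.71 for *Prickle1*, -3.92 for *Agt*, -1.96 for *Ptpn4* and -1.55 for *Napepld*.

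*Nfkb2*, *Srxn1*, *Agt*, *Ptpn4*, *Napepld*, *Dbp* and *Hlf* kept the call in all 18 fits that omitted 1 library. The other 37 lost it without at least 1 library, and 36 of the 44 lost it without control 1 of LLC. Those lost most often were *Nfic* (without any 1 of 13 libraries), *Gadd45b* and *Txnrd1* (10 each), *Tlr2*, *Thra*, *Dhrs7* and *Mt1* (9 each), *Prickle1* and *Arntl* (8 each), *Hdac4* (7), *Dtna* and *Myod1* (6 each), and *Per2*, *Gadd45a* and *Col9a1* (5 each). The remaining ones were lost without 1 to 4. The *Ces2c* difference rests on 2 fragments in each of the KPC and KPCML1 tumour groups.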

How the results depend on the processing

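None of the 146 named LLC calls and none of the 44 differences changed sign under any alternative that tested it. Named genes whose LLC effect was not called, such as *Hlf* and *Arntl*, are not covered by this statement. The balance of LLC calls, 1189 higher and 1002 lower, turned over without control 1 (208 and 271), without control 2 (388 and 462) and against a fold of 2 (76 and 85), and that of nuclear receptors without control 1, from the 4 LLC libraries alone and with no filter (5 and 7). The number of calls moved with the fit: 1327 genes were called with a replicate block (716 higher, 611 lower), 161 against a fold of 2 and 3940 from the 4 LLC libraries alone (2019 higher, 1921 lower). With 1 LLC library left out, 479 to 1255 genes were called (208 to 852 higher, 230 to 462 lower), the lone library of a group being assumed to vary like the others. Same-numbered LLC libraries deviated together with a correlation of 0.07, so the numbers were not taken to pair them. Low counts limit *Il1b*, *Cxcl10* and *Ggt6*, whose controls held 4 fragments or fewer, and *Ces2c* in KPC and KPCML1. They also limit *Kcnk5*, with 11 fragments in the controls, and *Slc15a2*, with 8 in the tumour libraries. Low values limit *Col9a1* as well, with 0.159 and 0.149 CPM in the tumour libraries, and *Ces2c*, with 0.297 and 0.301 CPM in the LLC controls. The same goes for *Ostn* in the tumour libraries and *Elf3* in the controls.

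Of 146 named LLC calls, 0 were lost with DESeq2, 0 with relative log expression factors, 10 with length-scaled counts, 4 with no filter, 25 with the replicate block and 1 from the 4 LLC libraries alone. Without control 1, control 2, tumour 1 and tumour 2 the losses were 68, 47, 31 and 52. Of the 44 differences, 23 were lost with the replicate block, 7 with length scaling, 1 with no filter and 0 with DESeq2.

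The difference from the mean of the other models was called for 884 genes with DESeq2, 1127 with no filter, 76 with the replicate block and 16 to 419 with a library left out. The pairwise differences were tried under the same alternatives, a choice made after seeing the data. DESeq2, no filter and the block gave 375, 726 and 10 genes against C26, 2132, 2301 and 501 against KPP, 829, 1153 and 72 against KPC, and 243, 613 and 10 against KPCML1. Length scaling gave 37 against C26 and 185 against KPC. With a library left out the ranges were 0 to 208 for C26, 169 to 1697 for KPP, 36 to 880 for KPC and 4 to 59 for KPCML1. The edgeR count of 0 arose without the second C26 control, where 1705 genes had an unadjusted p under 0.05.

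Genes called only in LLC numbered 122 with DESeq2, 130 with no filter, 11 with the replicate block, 29 with length scaling, 16 with an unadjusted p of at least 0.05 in each other model and 1 with each pairwise difference called, and 3 to 82 with a library left out. In the lists, the block gave 14 NF-kB genes higher, 3 oxidative stress genes lower and 1 glucose gene higher. No filter gave 5 glucose genes higher. The 4 LLC libraries alone gave 36 oxidative stress genes higher and 10 lower, 6 glucose genes higher and 20 transcription factor genes lower. With an LLC library left out, NF-kB calls ran from 7 to 18 higher and 1 to 4 lower, oxidative stress calls from 12 to 21 and 0 to 4, glucose calls from 0 to 1 and 10 to 15, and transcription factor calls from 10 to 26 and 6 to 8. The edgeR 0 for higher glucose genes arose without control 1, where 4 had an unadjusted p under 0.05, and that for lower oxidative stress genes without tumour 2, where 6 had. The causes of these shifts were not tested.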
